A study of Mus musculus with 2 samples.

Results

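The endoplasmic reticulum (ER) secretion and folding genes are 40 genes that carry a new secretory protein into the ER, fold it, add its sugars and remove what fails to fold. They were chosen by function, and all 40 of them were found among the 31017 gene symbols of the table and had UMIs in the kept cells. A UMI, or unique molecular identifier, is a tag that lets each captured transcript be counted once. The cells are from the spleen of mice aged 6 to 8 weeks. The labels name 2 samples, 1 whose title begins with WAS, read as the WAS-KO of the protocol text, and 1 whose title begins with WT. Was encodes the actin regulator lost in Wiskott-Aldrich syndrome. Both carry the Wiskott-Aldrich Syndrome mouse-model tag, and the allele, strain and sex are not given in the labels. The counts are 1 table in which no barcode is tied to either sample, so the genotypes were not compared and every value below describes 1 pooled set of cells.

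Proteins bound for the cell surface or for secretion enter the ER through the Sec61 channel, lose their signal peptide, receive N-linked glycans and fold with the help of HSP70 and HSP90 chaperones and disulphide isomerases. Proteins that stay misfolded are sent back to the cytosol and degraded. When B cells become plasma cells they enlarge the ER for antibody secretion, a change that depends on Xbp1, a transcription factor of the unfolded protein response (UPR).

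Of the 7524 barcodes, 6588 had at least 200 detected genes and at most 10% mitochondrial UMIs, with a median of 5339 UMIs and a range of 500 to 129686. Cells were assigned by raw counts of lineage markers. Cells with 20 or more UMIs of Jchain, which encodes the joining chain of secreted IgM and IgA, were plasma cells (n = 67), and cells with 5 or more UMIs of Cd79a, Cd79b and Ms4a1 were B cells (n = 2879). Levels are summed UMIs per 1000000 (CPM) of a class, taken on the total without the 390 immunoglobulin genes unless all-gene totals are named, because immunoglobulin made up 43.2% of plasma cell UMIs and 1.93% of B cell UMIs. A gene is called higher or lower at a 2-fold ratio with 50 or more UMIs over both classes. The 95% intervals are exact and cover counting error only. Cells are not replicates, so there is no p-value, and no difference between cell types has a replicate check.

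The promoters of some of the 40 genes hold a shared element, shown here because it is the textbook link between such genes and the UPR. The ER stress response element (ERSE) was searched as CCAAT and CCACG with 9 bases of any kind between them, on both strands of the RefSeq GRCm38.p6 promoters, which run from 250 bases before to 50 bases after the start. Of the 40 genes, 31 matched a promoter, and 8 of those (25.8%) held the element, against 37 of 27025 genes in the promoter table (0.137%). The sites are written 5′ to 3′ on the strand of the motif, with its fixed letters in capitals.
Hspa5: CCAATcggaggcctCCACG
Hsp90b1, nearer site: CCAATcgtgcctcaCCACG
Hsp90b1, farther site: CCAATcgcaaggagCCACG
Calr: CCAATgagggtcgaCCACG
Canx: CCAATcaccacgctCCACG
Dnajc3: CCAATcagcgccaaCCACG
Pdia6: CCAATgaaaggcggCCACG
Creld2: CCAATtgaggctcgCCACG
Derl3: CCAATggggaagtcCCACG

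The site nearest to its start was that of Hspa5, 65 to 47 bases before it. The farther Hsp90b1 site lay 212 to 194 bases before the start, and the other 7 sites lay between these. The elements of Calr, Creld2 and Derl3 and the nearer one of Hsp90b1 stood on the strand opposite to the gene. The shorter ERSE-II, searched as ATTGG and CCACG with 1 base between them, was found in Dnajb11 and Herpud1, 2 of 31 against 0.0444% of all genes. The core CCACG, which both elements contain, was in 26 of the 31 promoters (83.9%) against 35.5% of all genes. The element TGACGTGG was in none of the 31 promoters and in 0.714% of all genes. The 250 bases before the start are given for Hspa5, the textbook UPR target, and for Creld2 and Derl3, which had high plasma cell ratios. Capitals mark the ERSE, which reads as its reverse complement in Creld2 and Derl3.
Hspa5, chr2:34771840-34772089, plus strand: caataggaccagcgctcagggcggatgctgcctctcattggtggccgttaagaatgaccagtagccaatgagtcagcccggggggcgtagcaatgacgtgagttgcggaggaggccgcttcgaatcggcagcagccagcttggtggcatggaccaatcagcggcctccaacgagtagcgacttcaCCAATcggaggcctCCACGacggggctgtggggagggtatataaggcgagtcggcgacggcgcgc
Creld2, chr15:88819396-88819645, plus strand: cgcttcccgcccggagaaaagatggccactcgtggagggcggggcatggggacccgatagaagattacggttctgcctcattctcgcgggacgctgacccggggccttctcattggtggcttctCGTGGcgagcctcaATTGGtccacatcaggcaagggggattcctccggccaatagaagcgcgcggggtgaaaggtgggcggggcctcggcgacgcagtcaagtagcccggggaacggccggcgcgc
Derl3, chr10:75893148-75893397, plus strand: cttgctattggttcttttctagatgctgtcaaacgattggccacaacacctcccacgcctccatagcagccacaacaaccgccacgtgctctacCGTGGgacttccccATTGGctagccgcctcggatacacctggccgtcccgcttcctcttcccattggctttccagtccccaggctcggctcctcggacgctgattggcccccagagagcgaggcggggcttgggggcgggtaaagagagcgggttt

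The secretion and folding genes were higher in plasma cells than in B cells, each of the 40. Together they made up 67446 CPM (66969 to 67927) of the non-immunoglobulin UMIs of plasma cells and 5458 CPM (5423 to 5492) of those of B cells, a log2 ratio of 3.63 (3.61 to 3.64). On all-gene totals, in which antibody transcripts dilute every other gene of a plasma cell, the levels were 38337 and 5352 CPM and the log2 ratio was 2.84 (2.83 to 2.85). On those totals 38 of the 40 were called higher and none lower, where 5.34% of the 9879 genes tested were called higher and 55.5% lower. Without immunoglobulin all 40 were called higher, against 11.4% of 9827 genes, and 25.1% of genes were called lower. The members' median log2 ratio was 3.33 on these totals, and the median of all genes was -0.35. On all-gene totals the medians were 2.55 and -1.13.

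**Figure D1:**
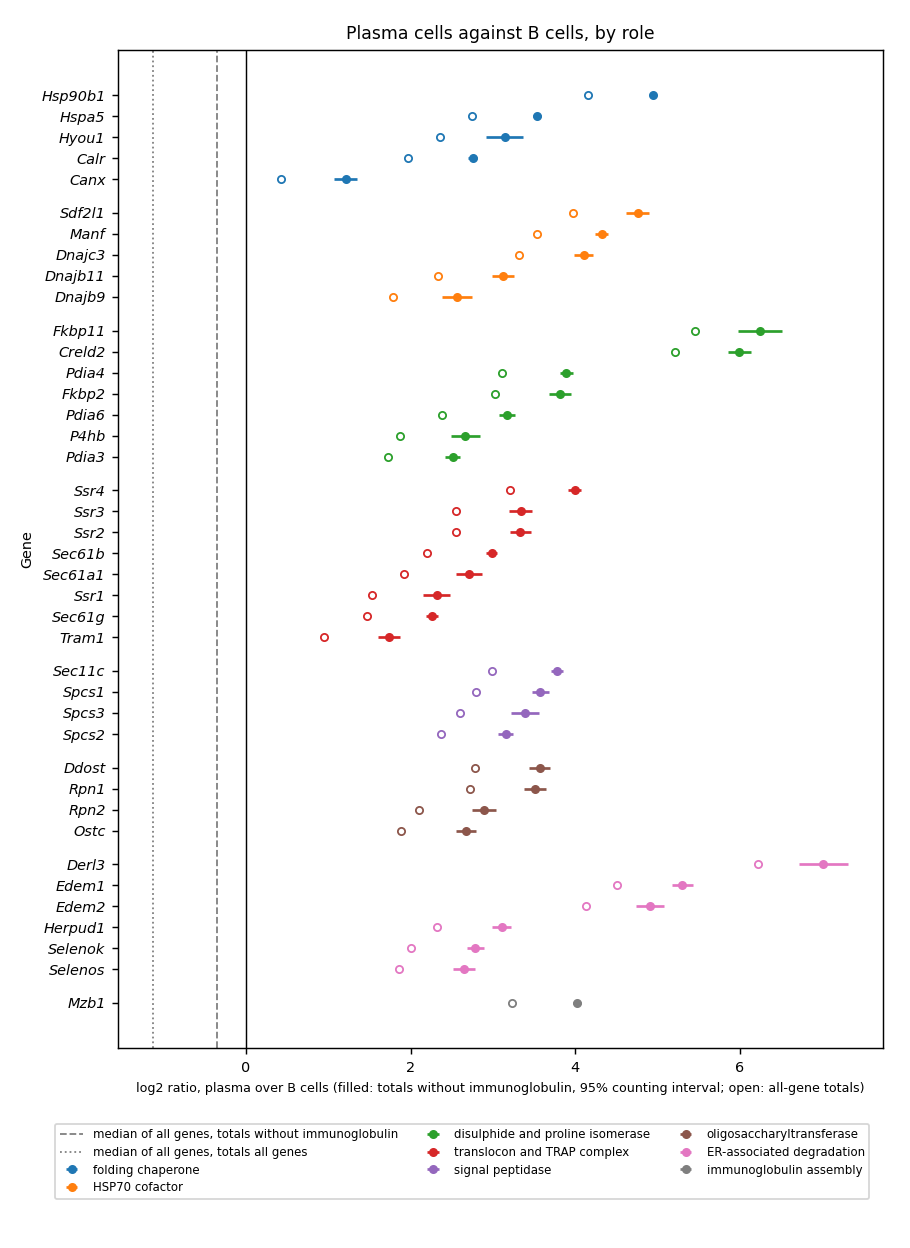
Log2 ratio of each gene in 67 plasma cells over 2879 B cells (x axis), with genes grouped by role (y axis). Filled points with 95% counting intervals use totals without immunoglobulin, open points use all-gene totals, and the vertical lines mark the medians of all genes tested (-0.35 dashed, -1.13 dotted); all filled points lie to the right of 1, from Canx at 1.21 to Derl3 at 7.01.

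The gap was also present cell by cell. The summed level of the 40 genes in single plasma cells ran from 7145 to 148925 CPM with a median of 59891, and in single B cells with 1000 or more non-immunoglobulin UMIs (n = 2875) the highest value was 21503 CPM. Of the 67 plasma cells, 65 lay above the highest B cell and 66 above the 99th percentile of B cells, 11727 CPM. The pooled plasma cell class matched its other markers: Xbp1 was at 3145 CPM against 65.2 in B cells, Prdm1 at 186 against 4.78, and the B cell genes Ms4a1 and Pax5 at 110 and 20.3 against 1724 and 503. Single plasma cells varied. Xbp1 had a UMI in 100% of them and Prdm1 in 76.1%. Their immunoglobulin share went as low as 0.92% of UMIs, below the pooled 1.93% of B cells. Transcripts of other cells were also present, with C1qa of macrophages at 36.3 CPM (B cells 11.9), S100a8 of neutrophils at 274 (147) and haemoglobin Hbb-bs at 1538 (953), and 9 of the plasma barcodes passed the gate of another lineage, 5 of them the macrophage gate. Without those 9 barcodes the count on all-gene totals was again 38 and the summed log2 ratio 2.86.

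**Figure D2:**
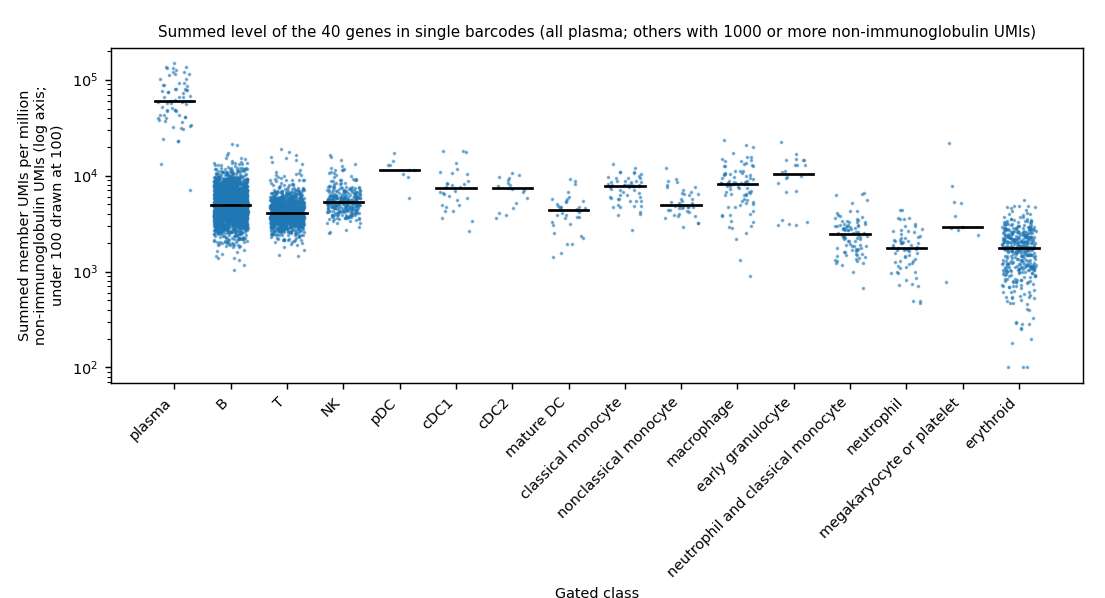
Summed level of the 40 genes in each of the 67 plasma cells and in each other cell with 1000 or more non-immunoglobulin UMIs, in CPM without immunoglobulin on a log axis, by gated class; black bars are medians. The plasma cells, with a median of 59891 CPM, stand above the other classes, and 65 of the 67 lie above the highest B cell at 21503 CPM.

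Among the folding chaperones, Hsp90b1 (GRP94, the HSP90 of the ER) had the largest ratio. Its 16597 UMIs in plasma cells gave 14678 CPM (14455 to 14903) against 478 CPM in B cells, a log2 ratio of 4.94 (4.90 to 4.98). Hspa5 (BiP, the HSP70 of the ER, which holds unassembled heavy chains) was at 5391 CPM (5256 to 5528) against 466, a log2 ratio of 3.53. Hyou1, a large HSP70 relative that acts as a nucleotide exchange factor for BiP, had a log2 ratio of 3.14 (2.92 to 3.37). The lectin chaperones, which bind glycoproteins with a trimmed sugar, differed from each other: Calr, the soluble one, had a log2 ratio of 2.76, and Canx, the membrane-bound one, 1.21 (1.07 to 1.35). Canx was the lowest of the 40, and on all-gene totals its ratio was 0.42 and not called.

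The cofactors of BiP had log2 ratios from 2.57 to 4.76. Sdf2l1, which works with ER J-proteins, was at 1019 CPM against 37.6, a log2 ratio of 4.76 (4.62 to 4.90). Manf, a secreted and ER-resident factor that binds BiP, followed at 4.32, and the J-proteins Dnajc3, Dnajb11 and Dnajb9 had ratios of 4.10, 3.12 and 2.57.

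The disulphide and proline isomerases included the genes next to the highest ratio of the 40. Fkbp11, a proline isomerase anchored in the membrane (chromosome 15, 98724366 to 98728198, minus strand, GRCm38), had 676 UMIs in plasma cells and 139 in B cells, or 598 and 7.91 CPM, a log2 ratio of 6.24 (5.97 to 6.51). Creld2, a disulphide isomerase-like protein (chromosome 15, 88819646 to 88826683, plus strand), was at 1751 against 27.5 CPM, a log2 ratio of 5.99 (5.85 to 6.14). These values came from a low base in B cells. Pdia4, Fkbp2 and Pdia6 followed with 3.89, 3.82 and 3.17, and P4hb and Pdia3, the long-known disulphide isomerases PDI and ERp57, had the lowest ratios of the role, 2.66 and 2.51.

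The genes of protein entry had the lowest median of the roles, 2.85 over 8 genes. Ssr4 stood highest at 4.0, and Ssr3, Ssr2 and Ssr1, the other subunits of the translocon-associated TRAP complex, were at 3.34, 3.33 and 2.32. The 3 Sec61 channel subunits Sec61b, Sec61a1 and Sec61g were at 2.99, 2.71 and 2.26. Tram1, a membrane protein beside the channel, was at 1.74, and on all-gene totals at 0.95 and not called. The signal peptidase subunits kept to a narrow range, with Sec11c, the catalytic one, at 3.78 and Spcs1, Spcs3 and Spcs2 at 3.58, 3.39 and 3.16. The subunits of oligosaccharyltransferase, which attaches N-linked glycans, ran from Ddost at 3.57 and Rpn1 at 3.51 to Rpn2 at 2.89 and Ostc at 2.67.

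ER-associated degradation held the highest ratio of all. Derl3, a member of the derlin family of retrotranslocation proteins (chromosome 10, 75893413 to 75895941, plus strand), had 896 UMIs in the 67 plasma cells and 108 in the 2879 B cells, or 792 CPM (741 to 846) against 6.15 (5.04 to 7.42), a log2 ratio of 7.01 (6.72 to 7.31). Edem1 and Edem2, which trim mannose from misfolded glycoproteins, followed at 5.30 and 4.91. Herpud1, a scaffold of the degradation complex, was at 3.11, and the selenoproteins Selenok and Selenos were at 2.79 and 2.65. Mzb1, an ER protein that aids the assembly of immunoglobulin with the chaperones, was at 6884 CPM against 425, a log2 ratio of 4.02 (3.97 to 4.06).

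The genes with and without the ERSE had overlapping ranges of ratios. The 8 genes with the element had log2 ratios from 1.21 (Canx) to 7.01 (Derl3) with a median of 3.82, the 23 with a promoter and no element had 2.26 to 6.24 with a median of 3.16, and the 9 with no promoter in the table had a median of 3.33. These values describe the genes, and whether the element bears on the ratio was not tested.

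Few of the 40 genes had most of their UMIs in plasma cells, which were a small share of the spleen. Plasma cells were 1.02% of kept cells and held 2.60% of non-immunoglobulin UMIs, 68.8% of immunoglobulin UMIs and 26.7% of the UMIs of the 40 genes. They held 87.2% (85.0 to 89.1) of all Derl3 UMIs, 78.1% of those of Fkbp11 and 65.6% of those of Creld2, the 3 genes above 50%. The median gene had 23.5% of its UMIs there, and Canx had 6.66%. Thinned to 1000 UMIs per cell, 26.9% of plasma cells had a Derl3 UMI, against 0.626% of B cells and 0.187% of T cells, which secrete no antibody. Before thinning the shares were 95.5%, 2.57% and 0.559% at median depths of 29259, 5155 and 6931 UMIs. For Mzb1 the thinned shares were 82.1% in plasma cells, 31.5% in B cells and 0.467% in T cells, and the unthinned ones 100%, 76.6% and 6.52%.

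The 40 genes set plasma cells first in the order of the 15 classes with 50000 or more UMIs for 39 members. The exception was Canx, at 496 CPM (421 to 582) in macrophages and 424 (387 to 464) in plasma cells, with overlapping intervals. Plasmacytoid dendritic cells (pDC), the other cells of the spleen known for secreting a large amount of protein, in their case interferon, were second for 19 members, and early granulocytes, which make granule proteins, for 10. The lead over the second class was 78.7-fold for Derl3, over the 1 UMI seen in pDC, 32.5-fold for Fkbp11, 17.4-fold for Creld2, 16.2-fold for Mzb1 and 14.9-fold for Pdia4. It was 1.26-fold for P4hb, 1.40-fold for Tram1 and 1.07-fold for Sec61g.

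**Figure D3:**
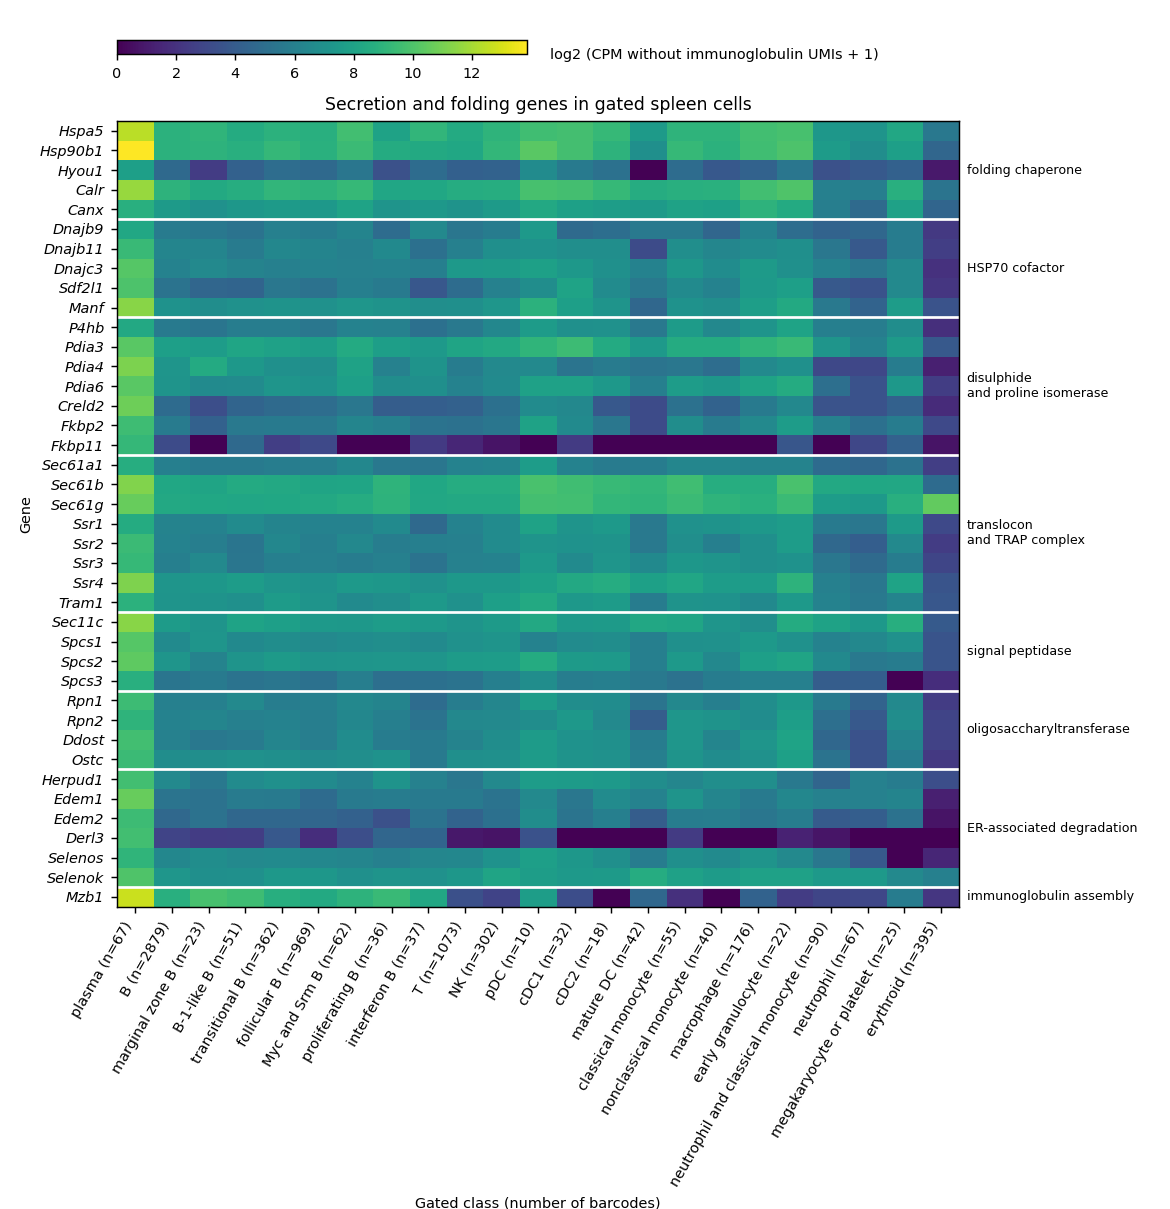
Level of each gene (rows, grouped by role) in each gated class (columns, with the number of cells), as log2 of CPM without immunoglobulin plus 1. The plasma column is the brightest for 39 of the 40 genes, and the Sec61g row is bright in erythroid cells, at 1469 CPM.

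The summed level of the other classes lay far below plasma cells. It was 11604 CPM (10944 to 12294) in the 10 pDC, 11057 in 22 early granulocytes, 9068 in 32 type 1 conventional dendritic cells (cDC1), 8080 in 176 macrophages, 7490 in 55 classical monocytes, 7150 in 18 type 2 conventional dendritic cells (cDC2), 5934 in 302 NK cells, 5778 in 40 nonclassical monocytes, 4570 in 1073 T cells and 4349 in 42 mature dendritic cells. The intervals of pDC and early granulocytes (10807 to 11311) overlapped. Among the granulocytes the sum was 11057 CPM in early cells with Mpo, Elane and Prtn3 and 2051 in 67 neutrophils. It was 2719 in 90 cells that passed both the neutrophil and the classical monocyte gate. The identity of those 90 cells was not checked with other markers. Macrophages had a median of 972.5 UMIs per cell and early granulocytes 32186.5, so the depth differed widely between classes.

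Erythroid cells were last for 33 of the 40 genes and second to plasma cells for Sec61g. Sec61g, the small gamma subunit of the Sec61 channel (chromosome 11, 16500530 to 16508484, minus strand), had 6522 UMIs in 395 erythroid cells, 1469 CPM (1433 to 1505), against 1579 (1506 to 1654) in plasma cells and 329 in B cells. Its partners Sec61b and Sec61a1 were at 28.2 and 4.95 CPM in the same cells. It had a UMI in 97.7% of erythroid cells with a median of 15 per cell, and without the 4 cells with the most it was at 1440 CPM. Thinned to 1000 UMIs, 67.8% of erythroid cells had a Sec61g UMI, against 55.2% of plasma cells, 27.9% of B cells and 26.1% of T cells.

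Haemoglobin made up 85.0% of erythroid UMIs and lowers every other gene there, as immunoglobulin does in plasma cells. With haemoglobin also left out of the totals, Sec61g was at 9843 CPM in erythroid cells and 1583 in plasma cells, and the other 39 genes summed to 2698 CPM, against 1879 in neutrophils, 5137 in B cells and 66035 in plasma cells. Plasma cells were then first for 38 members, erythroid cells for Sec61g and macrophages for Canx. Neutrophils were last for 22 members and erythroid cells for 6.

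Plasma cells were next set against pDC, the class second to them most often. On all-gene totals 28 of 40 genes were called higher and none lower, against 11.1% and 43.7% of 3288 genes. Without immunoglobulin 33 were called higher and none lower, against 19.6% and 16.7%. Plasma cells held 1989374 UMIs and pDC 99624, so a gene could pass the UMI minimum through plasma cells alone. All 40 members did so, the lowest being Hyou1 with 257 UMIs in plasma cells. The counts therefore do not show that each member was well measured in pDC. With a minimum of 1 UMI, on all-gene totals, 28 were again called higher. The median was then 1.31 for members and -0.73 for all genes. The members' median log2 ratio was 2.12 without immunoglobulin and that of all genes was -0.05. The highest ratios were those of Derl3 at 6.30 (3.82 to 11.6; 896 UMIs against 1), Mzb1 at 5.03, Pdia4 at 4.59, Creld2 at 4.12 and Edem1 at 4.10. Fkbp11 had 676 UMIs against 0. Canx at 0.35, Tram1 at 0.48 and Ssr1 at 0.54 were lowest, and their intervals included 0. The pDC were gated on 4 or more UMIs summed over Siglech, Klk1 and Cox6a2, so Siglech, at 1822 CPM, is no check of the class. Tcf4 and Bst2, which are not in the gate, were at 2305 and 3060 CPM, against 158 and 153 over all kept cells. The pDC class held 10 cells and 1153 UMIs of the 40 genes.

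The plasma cells nearest the gate had a lower pooled level of the 40 genes than the rest. The 5 plasma cells closest to the gate had 21 to 40 Jchain UMIs, and the other 62 had 154 to 3804. In the 5 the genes summed to 16806 CPM and immunoglobulin was 9.07% of UMIs, and in the 62 they summed to 70763 CPM at 44.5% immunoglobulin. Single cells overlapped. The 5 ran from 7145 to 56142 CPM with a median of 22899, and the 62 from 22908 to 148925 with a median of 63803. Among the 62 the summed level did not rise with the immunoglobulin share of a cell (Pearson r -0.15, Spearman rho -0.25), and over all 67 the coefficients were 0.32 and -0.13. Pearson coefficients, here and below, were taken on log2 of each value plus 1. Below the gate, the 7 cells with 10 to 19 Jchain UMIs were at 6481 CPM, the 12 with 5 to 9 at 6814, the 1262 with 1 to 4 at 5333 and the 5240 with none at 4779. These are pooled levels. The highest single cells, with no depth minimum, were at 52752, 17179, 36274.5 and 25460 CPM in the same order. Some cells below the gate thus lay within the range of plasma cells. Hsp90b1 was at 15475, 2504 and 353 CPM in the 62, the 5 and the 7 cells.

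**Figure D4:**
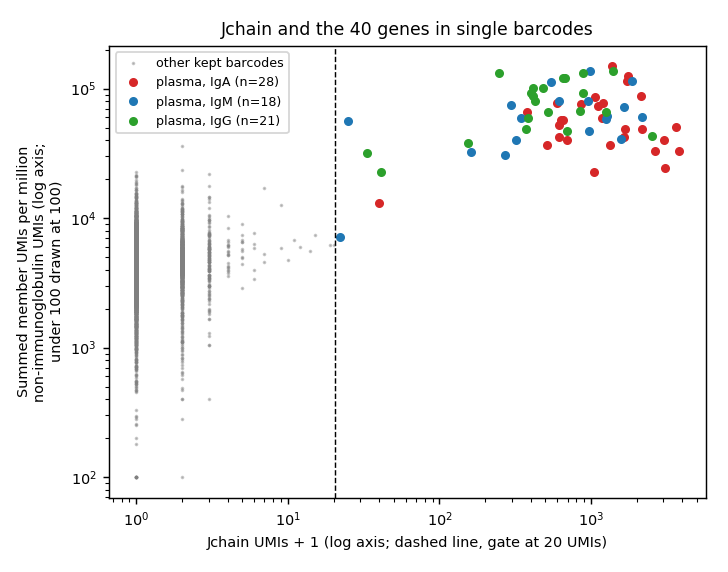
Jchain UMIs plus 1 (x, log axis) and summed CPM of the 40 genes without immunoglobulin (y, log axis) in the 67 plasma cells and each other cell with 1000 or more non-immunoglobulin UMIs, with plasma cells coloured by heavy chain and the gate at 20 UMIs dashed. No cell lies between 40 and 154 Jchain UMIs, and the 62 cells above that gap lie between 22908 and 148925 CPM.

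The heavy chain with the most UMIs was Igha in 28 plasma cells, Ighm in 18 and an IgG gene in 21. The summed level was 57719 CPM in IgA, 73935 in IgM and 74310 in IgG cells, while single cells overlapped: IgA cells ran from 13084 to 148925 with a median of 51357, IgM cells from 7145 to 135833 with a median of 59834, and IgG cells from 22899 to 136400 with a median of 79820. For Hspa5 the single-cell medians were 2814, 4045 and 3694 CPM, and for Hsp90b1 6058, 7688 and 17092, in the same order. The highest Hsp90b1 values were 42049, 45747 and 58997, so the 3 groups shared most of their range.

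In IgA over IgM cells none of the 40 was called higher and 3 were called lower, against 8.53% and 3.03% of 1781 genes on all-gene totals. The same counts were found without immunoglobulin, on which the ratios here are given. The 3 were Dnajb9 at -1.07 (-1.47 to -0.67), Fkbp11 at -1.05 and Sdf2l1 at -1.02, with Hspa5 close by at -0.96 (-1.06 to -0.86). The highest were Hyou1 at 0.47, Rpn1 at 0.40, Edem2 at 0.39, Sec11c at 0.36 and Canx at 0.30. The members' median was -0.17 and that of all genes 0.09. None was called lower when each cell counted equally or when the Jchain gate was lowered to 10 UMIs, and the cells behind each group can differ in sample, which cannot be told apart here.

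Plasma cells split by a cycle gate had nearly the same pooled level of the 40 genes and different shares of immunoglobulin transcripts. The 25 cells with 3 or more UMIs of Mki67, Top2a and Birc5 were at 67575 CPM with 28.2% immunoglobulin, and the other 42 were at 67283 CPM with 55.1% immunoglobulin. Median depths were 32866 and 26282.5 UMIs per cell, immunoglobulin included. The gate counts raw UMIs, so at equal depth a larger immunoglobulin share leaves fewer UMIs for its genes. The difference in share cannot be told apart from this effect of the gate. The single-cell medians were 67445 and 57886 CPM, and single cells ran from 7145 to 136400 and from 22899 to 148925 CPM. Hspa5 was at 6113 and 4470 CPM, Hsp90b1 at 14892 and 14404, Mzb1 at 7239 and 6430, and Xbp1 at 2379 and 4122.

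The roles varied to different degrees among the 62 plasma cells with 50 or more Jchain UMIs. The 75th over the 25th percentile was 3.18 for the summed folding chaperones, 3.14 for Mzb1, 2.19 for the BiP cofactors and 2.01 for the isomerases, but 1.42 for the translocon and TRAP genes and 1.43 for signal peptidase. Chaperones ran from 3700 to 74454 CPM and signal peptidase from 3144 to 9029. Over these 62 cells the chaperone sum followed that of the isomerases (Pearson r 0.87, Spearman rho 0.88), less so that of the translocon genes (0.38 and 0.35), and hardly that of signal peptidase (0.10 and 0.05). Hspa5 and Hsp90b1 had 0.62 and 0.78. Xbp1 and the sum of the 40 genes had -0.44 and -0.45, and with the 5 cells of low Jchain included 0.18 and -0.30. Each cell's values share a denominator, whether the cells come from 1 library or 2 is not known, and the medians rest on 255.5 chaperone UMIs and 97.5 signal peptidase UMIs per cell, so the coefficients are descriptive.

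Among B cells the differences were small beside the step to plasma cells. Subsets were gated by marker counts and hold the B cells that passed exactly 1 subset gate. The 468 B cells that passed several were left out of the subsets. Counted in every subset they pass, there would be 1321 follicular and 78 marginal zone cells. Each subset was compared with 969 follicular B cells (Fcer2a of 2 or more UMIs), whose 40 genes summed to 5076 CPM. In the comparisons among B cells and among dendritic cells the number of members called was the same on either total, the background shares are those on all-gene totals and the ratios are without immunoglobulin. In the 23 marginal zone B cells (Cd9 and S1pr3), innate-like cells that turn into plasma cells rapidly, the sum was 5656 CPM. Their median depth was 9200 UMIs per cell, against 5033 in follicular cells. Of 38 genes with enough UMIs 2 were called higher, against 4.49% of genes, and 4 lower, against 16.9%. Pdia4 was at 348 CPM against 113, a log2 ratio of 1.62 (1.26 to 1.97), and Mzb1 at 898 against 345, a log2 ratio of 1.38 (1.16 to 1.59). The next were Edem2 at 0.71, Spcs1 at 0.67 and Ssr3 at 0.52. The genes called lower were Hyou1 at -2.49, Creld2 at -1.69, Fkbp2 at -1.40 and Herpud1 at -1.09, on 1, 2, 4 and 10 UMIs in the marginal zone cells, and the intervals of Hyou1 and Creld2 included 0. The number called lower ran from 2, with B cells counted in every subset they pass, to 7 with gate minimums doubled. The members' median was -0.05 and that of all genes -0.20. Mzb1 had a UMI in 56.5% of marginal zone and 27.0% of follicular cells after thinning. Xbp1 was at 55.0 CPM against 65.5.

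The 51 B cells gated on Bhlhe41 and Zbtb32, genes of the B-1 lineage, had a sum of 5584 CPM at a median depth of 8106 UMIs. Their Zbtb20 level was 652 CPM against 130 over all kept cells. Cd5, a marker of B-1a cells, was at 9.39 against 44.7 over all kept cells, which include T cells at 216. It had a UMI in 5.88% of the gated cells and was not compared with other B cells. The cells are therefore called by their gate. Of 39 genes 2 were called higher, against 2.66%, and none lower, against 7.5%. Fkbp11 had a log2 ratio of 1.80 (0.69 to 2.80) on 11 UMIs, and Mzb1 was at 742 CPM against 345, a log2 ratio of 1.10 (0.93 to 1.28). Edem1 at 0.99, Sec11c at 0.60 and Ssr4 at 0.59 came next, and Sdf2l1 at -0.79, Ssr2 at -0.63 and Ssr3 at -0.59 were lowest. After thinning 5 of 30 genes were called lower. Mzb1 was called in both the marginal zone and the Bhlhe41 and Zbtb32 cells, which were set against the same follicular cells.

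The 362 transitional B cells (Cd93 and Vpreb3), the recent arrivals from the bone marrow, had a median depth of 4535.5 UMIs. None of 38 genes was called higher or lower in them, against 1.79% and 1.37% of genes. Edem1 at 0.92 (0.53 to 1.31), Tram1 at 0.44, Hsp90b1 at 0.43, Ssr2 at 0.42 and Sec11c at 0.40 were highest, and Creld2 at -0.16, Rpn1 at -0.14 and Sec61g at -0.09 lowest. The members' median was 0.22 and that of all genes 0.11. The 37 B cells with interferon-induced genes (Ifit1, Ifit3, Rsad2) had a median depth of 5856 UMIs. None of 38 genes was called higher in them, against 3.76%, and 5 were called lower, against 12.4%. These were Sdf2l1 at -1.54, Ssr1 at -1.46, Dnajb11 at -1.14, Rpn1 at -1.10 and Ostc at -1.03, on 3 to 12 UMIs each. The number called lower was 12 of 30 with cells thinned to 1000 UMIs and 1 of 39 with B cells counted in every subset they pass. Edem1 at 0.88, Dnajb9 and Edem2 at 0.75, Hspa5 at 0.35 and Tram1 at 0.34 were highest.

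The 62 B cells with Myc and Srm, genes of growth and polyamine synthesis, had the highest sum of the B cell subsets, 6781 CPM. Their median depth was 8249 UMIs. Of 38 genes 1 was called higher, against 5.19%, and none lower, against 8.55%, yet 31 of the 38 lay above the median of all genes, with medians of 0.45 and -0.05. Pdia4 was called, at 249 CPM against 113, a log2 ratio of 1.14 (0.86 to 1.41). Hspa5 was at 805 CPM against 429, a log2 ratio of 0.91 (0.76 to 1.06), followed by Edem1 at 0.87, Ddost at 0.82 and Pdia3 at 0.76. Tram1 at -0.57, Herpud1 at -0.48 and Selenok at -0.40 were lowest. In 36 proliferating B cells the sum was 5435 CPM.

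**Figure D5:**
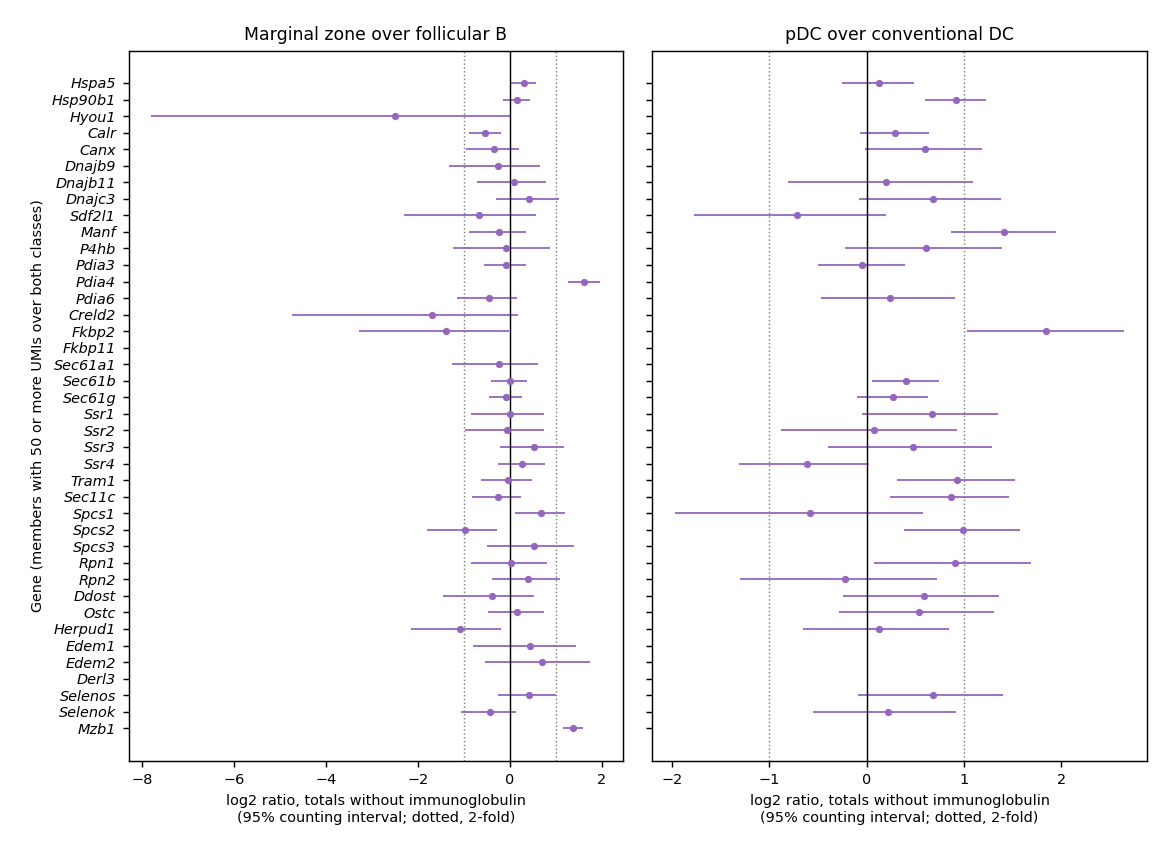
Log2 ratio with 95% counting interval of each gene with 50 or more UMIs over both classes, for marginal zone over follicular B cells (left) and pDC over conventional dendritic cells (right), on totals without immunoglobulin; dotted lines mark 2-fold. On the left Pdia4 (1.62) and Mzb1 (1.38) stand to the right of the dotted line, and on the right Fkbp2 (1.84) and Manf (1.41).

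Dendritic cells were compared with the 50 conventional cells of cDC1 and cDC2, at 8105 CPM. In the 10 pDC 29 genes had enough UMIs, of which 2 were called higher, against 10.2% of 1713 genes, and none lower, against 12.2%. Fkbp2 was at 252 CPM against 70.1, a log2 ratio of 1.84 (1.03 to 2.64), and Manf at 483 against 182, a log2 ratio of 1.41 (0.87 to 1.94). Spcs2 at 0.99, Tram1 at 0.93 and Hsp90b1 at 0.92 (0.60 to 1.22) came next, and Sdf2l1 at -0.72, Ssr4 at -0.61 and Spcs1 at -0.58 were lowest, with intervals that included 0. The members' median was 0.48 and that of all genes 0.00.

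Mature dendritic cells, which have left the stage of antigen capture, were gated on 4 or more UMIs summed over Fscn1, Ccl22 and Ccl17. Outside the gate, Relb had a UMI in 76.2% of them, Ccr7 in 66.7% and Cacnb3 in 50%. Socs2 was seen in 38.1% and Zbtb46 in 14.3%, so not every cell showed each marker. The mature class had lower levels of most of the genes tested. Of 28 genes with enough UMIs 18 were called lower, against 25.2% of genes, and 1 higher, against 8.62%. The conventional cells held 456868 UMIs and the mature cells 127778, so a gene could pass the UMI minimum through the conventional cells alone. With a minimum of 1 UMI, on all-gene totals, the median was -1.33 for members and -0.63 for all genes. The members' median was -1.37 and that of all genes -0.33. Hsp90b1 was at 118 CPM against 662, a log2 ratio of -2.49 (-3.35 to -1.75). Dnajb11 at -3.86, Rpn2 at -3.04 and Manf at -2.95 were lowest, on 1, 2 and 3 UMIs. Selenok was the gene called higher, at 376 CPM against 182, a log2 ratio of 1.05 (0.50 to 1.58), and Sec11c was at 0.79, Canx at -0.22, Sec61b at -0.30 and Sec61g at -0.38. The mature cells had a median of 2108.5 UMIs against 6163.5, and after thinning only 3 of the 40 genes could be tested.

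Other genes of the pathway, in 7 lists, were set between plasma and B cells in the same way, beside 11.4% of all genes called higher and 25.1% lower without immunoglobulin and 5.34% and 55.5% on all-gene totals. Of the UPR sensors and transcription factors 5 of 12 tested were called higher and 1 lower, with Xbp1 at 5.59 (3145 against 65.2 CPM), Creb3l2, an ER-bound transcription factor, at 5.13 and Ern1, the sensor that splices Xbp1 mRNA, at 3.34, and Mbtps2 lowest at -1.24. On all-gene totals this list had 3 higher and 3 lower. Of other folding enzymes 13 of 18 were called higher and none lower, led by the peroxiredoxin Prdx4 at 4.80, the disulphide isomerase Txndc5 at 4.67 and Sil1, an exchange factor of BiP, at 3.50, with Uggt1 lowest at 0.28. Of other targeting and translocation genes 9 of 13 were higher and none lower, led by Tram2 at 4.28, the signal recognition particle receptor subunits Srprb at 3.05 and Srpr at 2.34, with Sec61a2 at -0.83. Tram2 and Tram1 are paralogs, and Tram1 was among the lowest members at 1.74.

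Of the other oligosaccharyltransferase subunits 6 of 8 were higher and 1 lower, with Krtcap2 at 2.98, Magt1 at 2.47, the catalytic Stt3a at 2.36 and Tusc3 at -1.50. Of other degradation genes 9 of 14 were higher and none lower, led by Sel1l, the partner of the ubiquitin ligase Hrd1, at 3.44, Erlec1 at 3.29 and Ube2j1 at 3.25, with Herpud2 at -0.39. The vesicle coat genes of ER exit (COPII) had 18 of 20 higher and none lower, with Sec24d, a cargo adaptor, at 5.50, the cargo receptor Lman1 at 4.56, Surf4 at 2.90 and Sec24b at -0.57. Those of return from the Golgi (COPI) had 9 of 11 higher and none lower, with the KDEL receptors Kdelr2 at 3.00 and Kdelr1 at 2.29, Cope at 2.27 and Arcn1 at 0.89. These counts too stand beside 11.4% of all genes called higher and 25.1% lower. On all-gene totals, where 5.34% of genes were called higher and 55.5% lower, the counts of the last 6 lists were 8, 6, 4, 6, 11 and 3 higher, in the order given, and 0, 1, 1, 1, 1 and 0 lower. The list medians without immunoglobulin ran from 0.93 for the UPR genes to 2.03 for COPII, beside 3.33 for the 40 genes and -0.35 for all genes.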

How the data were processed

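Spleen cells were profiled as droplet-based 3-prime libraries, and transcripts were mapped to mm10-3.0.0, per the labels' protocols. The authors deposited raw UMI counts for each gene and barcode, with no scaling. The counting program is not given in the sources used here, nor is its treatment of reads from near-identical genes. All 7524 barcodes share 1 suffix and none is tied to a sample, so the table was taken as 1 pooled sample. The members, lists, gates and tests were chosen with earlier results of these data known.

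Barcodes with fewer than 200 genes (101) or over 10% mitochondrial UMIs (857) were removed, 936 in all. The 6588 kept barcodes held 44751473 UMIs, of which the 40 genes were 285690 (0.638%), from 866 to 33214 UMIs a gene. Cells were assigned by 16 lineage gates and 7 B cell subset gates on raw marker UMIs. Plasma cells were taken first, then early granulocytes, and a barcode passing several other lineage gates was left out as mixed (444). Another 937 passed no gate, at a median of 958 UMIs. B cells passing several subset gates (468) stayed in the B cell class but were put in no subset. Scrublet (scanpy 1.11.5) called 137 doublets (2.08%), none a plasma cell or pDC, and they were removed as an alternative only.

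Summed UMIs of a class were divided by its total, with and without 390 immunoglobulin genes, and scaled to 1000000. Sums carry exact Poisson, shares exact Clopper-Pearson and ratios exact conditional binomial intervals (95%). A count of 0 was taken to allow 3 counts. The ratio step was tested on simulated data. All 40 genes are reported, with the 5 highest and 3 lowest in each comparison other than plasma over B cells, and up to 3 highest and 1 lowest of each pathway list. Of 107 list symbols 103 were in the table. Heavy chain class was the constant gene with the most UMIs. Coordinates came from GENCODE vM21, and promoters from RefSeq GRCm38.p6, the assembly that mm10 denotes. Hyou1, Manf, Sec61a1, Ssr2, Tram1, Sec11c, Spcs3, Ostc and Mzb1 matched no promoter entry. Python 3.11.15, numpy 2.4.6, scipy 1.17.1, pandas 2.3.3 and matplotlib 3.10.9 were used. Alternatives covered totals, scaling, cell filters, gates, thinning, the UMI minimum and per-cell means.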

Additional observations from a re-analysis of the deposited data

How the results depend on the processing

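No paired analysis was possible because there is 1 sample per group and no barcode is tied to a sample, and for the same reason no replicate could be left out. Between 36 and 40 genes were called higher in plasma over B cells under the 19 alternatives, 4 of them added after seeing the data, and none was called lower. The summed log2 ratio of plasma over B cells, 2.84 on all-gene totals, was 3.63 without immunoglobulin, 3.45 without immunoglobulin, haemoglobin, mitochondrial and ribosomal protein genes, 3.78 with median-of-ratios size factors, 2.74 at a mitochondrial maximum of 5%, 2.87 and 2.77 at Jchain minimums of 50 and 10, 2.86 without plasma barcodes of another gate, 2.82 with cells thinned to 1000 UMIs, and 2.87 with the Jchain minimum of 50, doublet calls and other-gate barcodes removed together (added). Thinning gave counts of higher genes of 10 (28 without it) for plasma over pDC, 4 (2) for marginal zone, 1 (0) for transitional, 4 (1) for Myc and Srm, 1 (0) for interferon B cells and 0 (1) for mature dendritic cells. For plasma over pDC 14 genes then reached 50 UMIs over 67 plasma cells and 9 pDC, and a gene could pass through plasma cells alone, so that count is no check, and for pDC over conventional dendritic cells none did. Counting each cell equally gave 1 higher gene for IgA over IgM (0), 1 for transitional B cells (0), 5 for pDC over conventional cells (2) and 2 for mature dendritic cells (1). Gate minimums doubled gave 4 for marginal zone (2), 1 for Bhlhe41 and Zbtb32 cells (2) and 2 for mature dendritic cells (1). UMI minimums of 10 and of 1 each gave 1 for transitional (0), 2 for Myc and Srm (1) and 1 for interferon B cells (0), and 7 and 8 for pDC over conventional cells (2), and a minimum of 1 gave 2 for mature dendritic cells (1). The 5% mitochondrial maximum gave 2 for Myc and Srm B cells (1) and 1 for pDC over conventional cells (2). Of the added alternatives, counting B cells in every subset they pass gave 1 for transitional (0) and 0 for Myc and Srm cells (1), and for pDC over conventional cells both leaving out the deepest barcode of each class and letting the pDC gate take precedence gave 6 (2). Counts of lower genes ran from 0 to 4 for IgA over IgM (3), 2 to 7 for marginal zone (4), 0 to 5 for Bhlhe41 and Zbtb32 cells (0), 0 to 2 for Myc and Srm (0), 1 to 12 for interferon B cells (5), 0 to 2 for pDC over conventional cells (0) and 0 to 23 for mature dendritic cells (18), where the 0 is of 3 genes tested after thinning. The causes were not tested.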
